A study of Drosophila melanogaster with 56 samples.

Results

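The 150 mRNAs described here were chosen for being concentrated at the end of a time course of Drosophila melanogaster embryogenesis. Levels were expressed as CPM (the count of a gene relative to all reads on genes, scaled to a library total of 1000000) and averaged over 4 replicates at each time. Among the 1709 genes whose highest mean of the 14 time points lay at 20 h and reached at least 10 CPM, the 150 with the largest ratio of the 20 h mean to the highest mean over 1 to 16 h were taken, with 0.5 CPM added to both. They were 150 of 17558 genes in the tables. The values at 20 h and at 1 to 16 h therefore chose these mRNAs, and are given below as a description. Counts of calls from the fitted comparisons of 20 h with 18 h and of 1 h with 0 h follow in part from that choice, and nothing is read from them for the 150. The levels at 0 and 18 h entered the choice directly through the single condition that neither exceeded the level at 20 h. They are not independent of the values that chose the mRNAs.

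The embryos were wild type, of the strain Oregon R, with no treatment or mutation in any sample. The time course began at 0 h, with embryos of a 30 min laying period, and had a sample every 1 h up to 6 h and every 2 h from there to 20 h, all at 25 °C. Each sample was a pool of whole embryos from which polyadenylated RNA was sequenced, and each time point had 4 biological replicates, 56 samples in all. The libraries held 13422473 to 22536043 counts on genes (median 16709769), so that 3 counts corresponded to 0.133 to 0.224 CPM. In pools of whole embryos, more cells of a type and more RNA per cell cannot be told apart.

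The body surface of a fly larva is cuticle, a layered extracellular matrix of chitin fibres and proteins that the epidermis secretes. The cuticle of the hatching larva is laid down inside the egg, late in embryogenesis. Many of its proteins belong to families recognised by their sequence. The CPR family carries the Rebers-Riddiford chitin-binding region and includes the genes named Cpr, Lcp65A (larval cuticle proteins) and Ccp84A. The Tweedle family (Twdl) includes Tubby (Tb), which is known for a dominant mutation that makes larvae short and stout. Of the 150 mRNAs, 50 were named as cuticle proteins or were Tb. A further 77 of the 150 carried a CG symbol alone, which says nothing of their function, and 149 were protein-coding, with lncRNA:CR44138 as the exception.

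The libraries of 20 h differed among themselves, which touches every result given here. The summed level of the 150 mRNAs was 9631, 2104, 64820 and 57810 CPM in 20 h replicates 1 to 4, against 429.1, 1830, 1788 and 3491 CPM in 18 h replicates 1 to 4. The high mean at 20 h (33590 ± 32290 CPM, SD, n = 4) thus rested on replicates 3 and 4, and replicate 2 lay within the range of the 18 h libraries. In all 150 mRNAs, replicates 3 and 4 lay above replicate 1 and replicate 1 lay above replicate 2. Replicates 3 and 4 exceeded every library of 0 to 18 h in 150 of 150 mRNAs. Replicate 1 exceeded all 4 libraries of 18 h in 148, and replicate 2 did so in 2. Replicate 2 was below 18 h replicate 4 in 133 mRNAs and below the mean of 18 h in 94. These counts use the 20 h values that chose the mRNAs. The same counts are not given for other genes, so they only describe how the libraries were ordered.

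The same division ran through genes outside the list. Over 9116 other genes, 20 h replicate 2 was most similar to 18 h replicate 4 (Spearman's rho 0.997, across genes, which are not independent replicates), and so was 20 h replicate 1 (rho 0.984). Replicates 3 and 4 of 20 h were most similar to each other (rho 0.994). At 18 h, replicate 1 was closest to a 14 h library (rho 0.992), as was replicate 3 (rho 0.987). The summed level of 7 muscle genes was 20800, 15170, 29600 and 27090 CPM in 20 h replicates 1 to 4, against 3636, 5289, 6597 and 16460 CPM at 18 h, and its part in the results was not tested. The libraries labelled 18 and 20 h thus did not group by label, and whether the embryos differed in stage was not tested here. Without 20 h replicates 3 and 4, 148 of the 150 mRNAs still had their highest mean at 20 h, but 91 reached 10 CPM there, and 51 stayed among the 150 that the same rule would take. Without replicates 1 and 2 of 20 h, 145 stayed. The 20 h level that chose these mRNAs thus rested on replicates 3 and 4. Replicate 1 lay below both of those, and the summed level in replicate 2 lay within the range of 18 h. Since the rule used the 20 h values, they cannot show whether the label of mRNAs that come on at 20 h holds. The 150 mRNAs are called here by the rule that chose them.

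**Figure D1:**
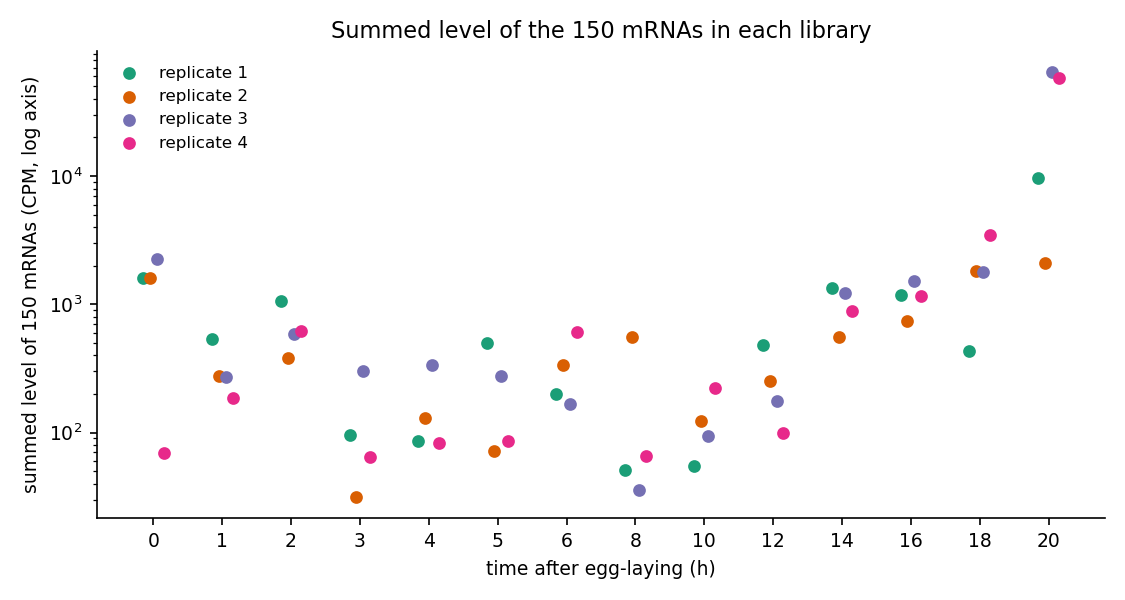
Summed level of the 150 mRNAs in each of the 56 libraries (CPM, log axis) against time after egg-laying in h, with a colour for each replicate number. Replicates 3 and 4 of 20 h stand at 64820 and 57810 CPM, replicate 2 of 20 h at 2104 CPM, and 0 h replicates 1 to 3 lie above the libraries of 1 h.

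Between 1 and 12 h the sum stayed between 31.67 and 1055 CPM in every library. It was 1344, 560.8, 1225 and 894.3 CPM in the 4 replicates of 14 h and 1177, 744.7, 1523 and 1151 CPM in those of 16 h, which is on average 3.00% and 3.42% of the level at 20 h. The highest mean over 1 to 16 h fell at 16 h for 94 mRNAs and at 14 h for 55. For Ccp84Ae it fell at 1 h, with a mean of 0.588 CPM. The sum at 18 h was 5.61% of that at 20 h (SD 3.73 over the 18 h replicates).

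The ratio that ranked the mRNAs ran between 16.43 and 49.0, with a median of 24.09. The largest belonged to CG15212 (FBgn0040842), of unknown function, which had 48.99, 5.24, 696.7 and 629.4 CPM in 20 h replicates 1 to 4, against 1.29, 20.88, 13.56 and 11.31 CPM at 18 h. CG11584 came next, with 82.92, 6.70, 899.2 and 681.0 CPM at 20 h, against 0.775, 14.02, 8.79 and 17.22 CPM at 18 h. In both genes 20 h replicate 2 fell below 3 of the 18 h libraries. The last genes inside the threshold were Cpr31A and CG17127 (ratios 16.44 and 16.43). Just outside it lay CG1143 and osy (16.4 and 16.37), of which osy encodes an ABC transporter of the cuticle barrier. The values of the genes on either side of the threshold were nearly equal.

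Among the named families the Tweedle genes had the largest summed level. They numbered 17 of the 150, out of 27 such genes in the tables, and their summed level was 2859, 649.6, 15400 and 13360 CPM in 20 h replicates 1 to 4, against 97.98, 484.2, 464.5 and 1083 CPM at 18 h. TwdlD (FBgn0039444) was the most abundant Tweedle mRNA among the 12 with the largest ratios, with 230.2, 28.53, 3109 and 2635 CPM at 20 h, against 5.56, 55.66, 42.86 and 64.26 CPM at 18 h. TwdlM had 121.0, 11.71, 2113 and 1613 CPM at 20 h, against 2.71, 49.15, 26.98 and 30.34 CPM at 18 h. TwdlB, TwdlL and TwdlY had the same order of the 20 h libraries. In each of these genes 20 h replicate 1 was between the 18 h libraries and 20 h replicates 3 and 4, at 5.98% or more of the mean of the last 2.

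TwdlF (FBgn0037224) departed from this pattern. It had 1401, 357.2, 2189 and 2103 CPM in 20 h replicates 1 to 4, against 46.05, 155.0, 194.7 and 582.8 CPM at 18 h. Replicate 1 of 20 h was already at 65.3% of the mean of replicates 3 and 4, the highest share of the 150, and 18 h replicate 4 exceeded 20 h replicate 2. TwdlE was similar, with 124.4, 43.40, 278.6 and 325.6 CPM at 20 h, against 9.95, 15.56, 24.87 and 65.04 CPM at 18 h. TwdlG, next to TwdlF in the genome, had 35.0% in replicate 1. The Tweedle genes thus covered nearly the whole spread of the 150 mRNAs, with 18 h levels of 2.63% to 16.2% of the 20 h level.

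The CPR family gave 20 genes named Cpr (of 70), 6 named Lcp65A (of 11) and 3 named Ccp84A (of 7). Per length of exon, Cpr65Ea (FBgn0035735) had the highest level at 20 h of all 150, with a mean of 3702 RPKM (CPM per kilobase of exon), ahead of Cpr51A at 2360 RPKM and TwdlD at 1555 RPKM. Cpr65Ea had 277.2, 32.22, 3989 and 3698 CPM in 20 h replicates 1 to 4, against 5.56, 105.5, 60.23 and 89.47 CPM at 18 h, so that 20 h replicate 2 fell below 3 of the 4 libraries of 18 h. Cpr51A had 308.5, 92.56, 2901 and 2843 CPM at 20 h, against 13.69, 89.49, 83.74 and 116.8 CPM at 18 h.

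The Lcp65A genes encode small larval cuticle proteins and had some of the lowest levels in 20 h replicate 1 relative to replicates 3 and 4. Replicate 1 of 20 h held 5.33% to 8.68% of the mean of replicates 3 and 4 for the 6 of them. Lcp65Ag2 had 53.34, 8.21, 907.5 and 837.5 CPM at 20 h, against 3.29, 27.86, 21.60 and 13.19 CPM at 18 h. Lcp65Af, at a lower level, had 7.29, 0.799, 139.8 and 123.0 CPM at 20 h, against 0.517, 1.95, 3.20 and 1.69 CPM at 18 h. Lcp65Ag1, Lcp65Ag2 and Lcp65Ag3 are near-identical copies, as are Cpr67Fa1 and Cpr67Fa2, so the division of reads within each set is uncertain.

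Few genes outside the Tweedle and CPR families are named here for a role in the cuticle, and those with a CG symbol alone could not be classed by it. All 4 genes named Vajk were among the 150, and are already counted in the 50 named as cuticle proteins or Tb. Vajk4 had 220.8, 44.24, 1813 and 1594 CPM at 20 h, against 7.36, 43.41, 37.07 and 93.76 CPM at 18 h. The single member of the 8 obstructor genes was obst-E, a chitin-binding protein that shapes the larval cuticle, with 28.72, 3.55, 439.6 and 389.0 CPM at 20 h, against 0.969, 10.00, 7.43 and 7.67 CPM at 18 h. Ddc, the dopa decarboxylase that supplies dopamine for hardening and darkening of cuticle, had 8.14, 1.11, 93.73 and 71.30 CPM at 20 h, against 0.517, 1.30, 1.70 and 1.24 CPM at 18 h. Also present were transcripts of the barrier against water loss, snu (an ABC transporter) and snsl (an extracellular protein). For snu the levels were 137.0, 52.45, 824.5 and 698.3 CPM at 20 h, against 15.24, 29.69, 35.98 and 77.84 CPM at 18 h.

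Outside the cuticle, 4 named mRNAs belonged to lists of gut or chemosensory genes. Muc91C, named as a mucin, had 236.0, 45.48, 420.8 and 347.8 CPM at 20 h, against 6.33, 20.11, 30.66 and 78.42 CPM at 18 h, and 20 h replicate 1 was at 61.4% of replicates 3 and 4. Try29F, named as a trypsin, had 21.62, 3.24, 230.0 and 187.9 CPM at 20 h, against 4.13, 4.32, 6.20 and 3.18 CPM at 18 h. Of 51 odorant-binding protein genes, Obp83g and Obp83cd were among the 150. Obp83g had 51.26, 12.25, 373.0 and 330.2 CPM at 20 h, against 4.13, 14.79, 10.02 and 17.41 CPM at 18 h. No gene of the lists for sugar digestion, lipases, chitinases, lysozymes, larval serum proteins, neuropeptides, the V-ATPase or muscle was among the 150.

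**Figure D2:**
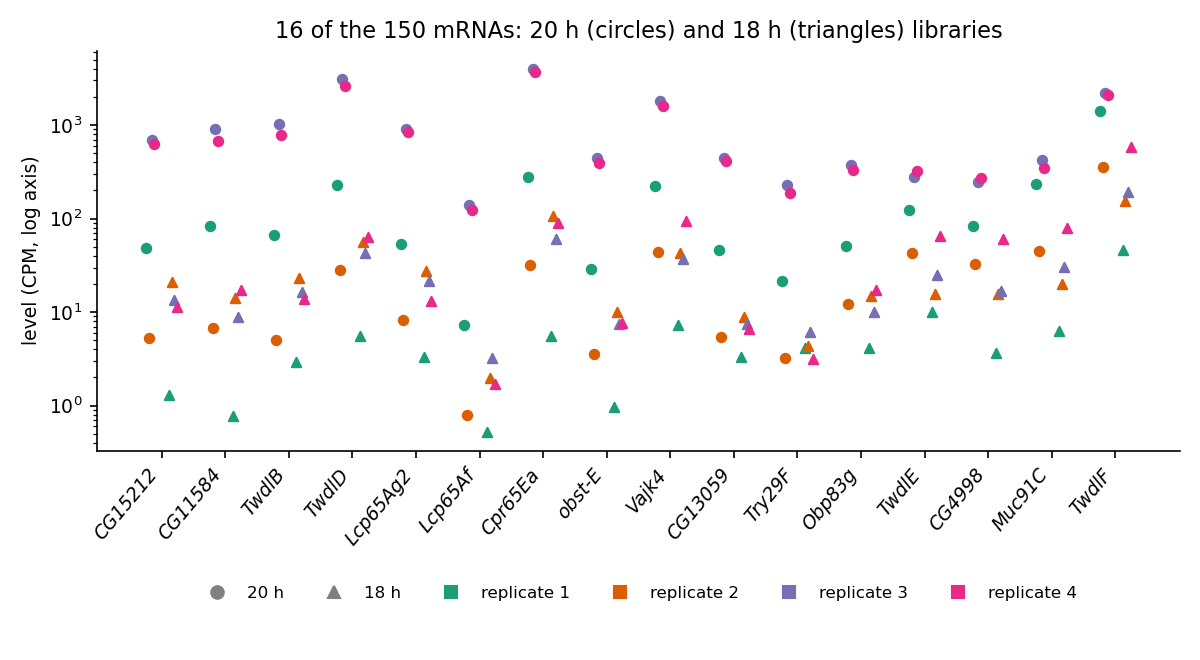
Levels of 16 of the 150 mRNAs (CPM, log axis) in the 20 h libraries (circles, left of each pair) and the 18 h libraries (triangles, right), with a colour for each replicate number. Replicates 3 and 4 of 20 h are on top in each gene, and 20 h replicate 2 lies among the 18 h triangles in most of them.

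In a model fitted with edgeR across all genes and all time points, 150 of the 150 mRNAs were called higher at 20 h than at 18 h (adjusted p under 0.05 and a log2 fold change of at least 1) and 0 lower, beside 17.2% and 6.05% of the 11065 genes tested. That count follows from the rule, since all of them were chosen on 20 h. Their fitted log2 fold changes ran between 2.78 (TwdlF) and 6.46 (CG14095), with a median of 4.68, against a median of -0.06 over all genes. Without 20 h replicates 3 and 4, 0 of the 150 were called in edgeR, beside 1.08% of all genes called higher. At an unadjusted p under 0.05, 36 of the 150 were higher and 0 lower. Over all 11242 genes of that fit, 3057 passed the same threshold in either direction. The median log2 fold change of the 150 was 1.52 (range -0.59 to 2.81). Without 20 h replicates 1 and 2, 150 were called, with a median of 5.46, beside 20.1% of all genes. When the 8 libraries of 18 and 20 h were fitted alone, edgeR called 0 genes of all those tested, and 4745 genes had an unadjusted p under 0.05.

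How far each mRNA had come at 18 h varied within the list. The mean at 18 h was 1.27% to 16.2% of the mean at 20 h, with a median of 4.45% (SD 2.06 over the 18 h replicates). For the 1559 other genes highest at 20 h and at 10 CPM or more, the median was 42.5%. The ratio split the 150 from these genes, so the difference follows in part from the choice. The highest shares were those of TwdlF (16.2%), CG4998 (15.3%), TwdlE (14.9%) and Muc91C (12.9%). The lowest were those of CG14095 (1.27%), Cpr92F (1.71%), Cpr100A (1.77%) and CG30458 (1.96%). CG14095 had 9.06, 0.488, 132.1 and 116.2 CPM at 20 h, against 0.129, 1.54, 1.23 and 0.390 CPM at 18 h, where its counts were few. Within 18 h, replicate 1 was the lowest library for 139 of the 150 mRNAs, and the highest was replicate 4 for 80, replicate 2 for 43 and replicate 3 for 26.

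The 20 h replicate 1 sorted the mRNAs in much the same order. Its level was 3.57% to 65.3% of the mean of replicates 3 and 4, with a median of 10.6%, and that of replicate 2 was 0.247% to 16.7%, with a median of 1.89%. For the other genes highest at 20 h these medians were 79.4% and 60.0%, a difference that also follows in part from the choice. Across the 150 mRNAs the 18 h share and the share in 20 h replicate 1 had a Spearman's rho of 0.71. Both shares have 20 h replicates 3 and 4 in the denominator. A measure without that denominator, the level in 18 h replicate 4 over the mean of 18 h replicates 2 and 3, had a rho of 0.81 with the share in 20 h replicate 1. These are descriptions across 150 genes of the same libraries. The mRNAs with a large share in 20 h replicate 1 thus tended to be those that stood above the other 18 h libraries in 18 h replicate 4.

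**Figure D3:**
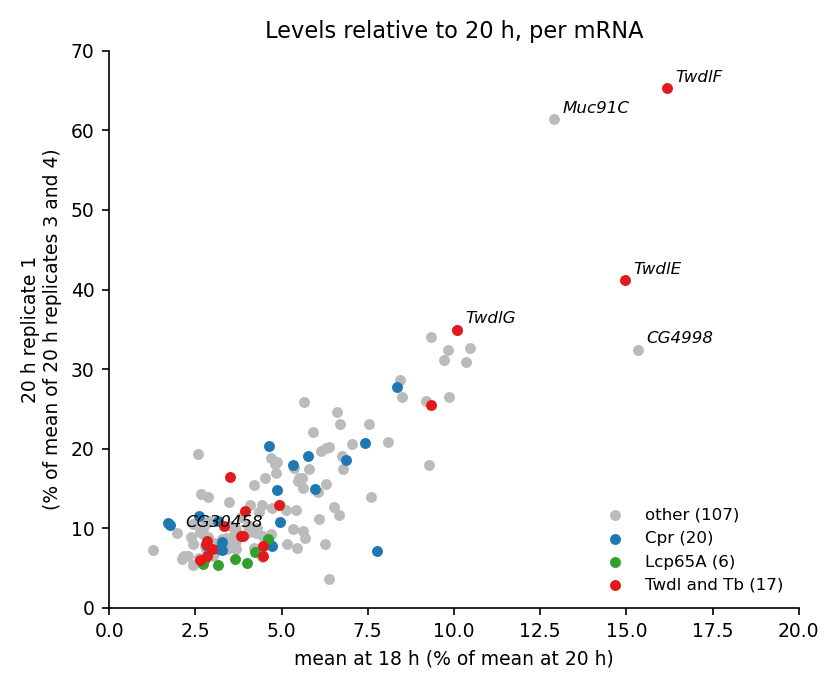
Each of the 150 mRNAs as a point, with its mean at 18 h as a percent of its mean at 20 h (x) and its level in 20 h replicate 1 as a percent of the mean of 20 h replicates 3 and 4 (y), coloured by gene family. TwdlF (16.2% and 65.3%) and Muc91C (12.9% and 61.4%) lie apart at the upper right. TwdlE and CG4998 lie to the right at lower values of y, and the Lcp65A genes lie at the lower left.

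The libraries of 0 h held these late mRNAs too. Their summed level was 1609, 1592, 2259 and 68.91 CPM in 0 h replicates 1 to 4. The 0 h sum was on average 4.12% of the 20 h sum (SD 2.77), beside 5.61% for 18 h. Each of the 150 mRNAs was higher in 0 h replicates 1 to 3 than in 0 h replicate 4. The median level over the 150 was 4.50%, 4.71% and 6.56% of the 20 h mean in 0 h replicates 1 to 3, and 0.176% in replicate 4.

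The mean share at 0 h varied less among the mRNAs than that at 18 h: the quartiles were 3.08% and 6.09% at 18 h, against 3.44% and 5.09% at 0 h. By library, the quartiles over the 150 were 3.63% and 5.30% in 0 h replicate 1, 3.66% and 6.63% in replicate 2, and 5.41% and 8.30% in replicate 3. Across the 150 mRNAs the level in each of these libraries followed the level at 20 h, with a Spearman's rho of 0.966, 0.913 and 0.954. In 0 h replicate 4 it was 0.824. This was not particular to 0 h: rho was 0.957 in 2 h replicate 1 and 0.981 in 14 h replicate 3, though as low as 0.272 in 3 h replicate 1. Levels at 0 h were high for mRNAs that were high at 20 h: TwdlD had 80.85, 70.67, 109.9 and 3.06 CPM in 0 h replicates 1 to 4, and Cpr65Ea had 87.73, 89.84, 119.0 and 4.62 CPM. The other 1559 genes highest at 20 h had medians of 6.23%, 5.26%, 7.90% and 0.452% in the same libraries. Muscle genes, which were not part of the rule, followed the same division: the summed level of 7 of them (Mhc, Act57B, Act87E, Mlc1, Mlc2, up and wupA) was 1481, 1348, 1467 and 116.2 CPM in 0 h replicates 1 to 4. The 4 genes with the highest mean share at 0 h were CG4229 (7.59%), CG13051 (7.46%), CG30457 (7.36%) and CG14453 (7.33%). The source of this RNA was not tested.

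**Figure D4:**
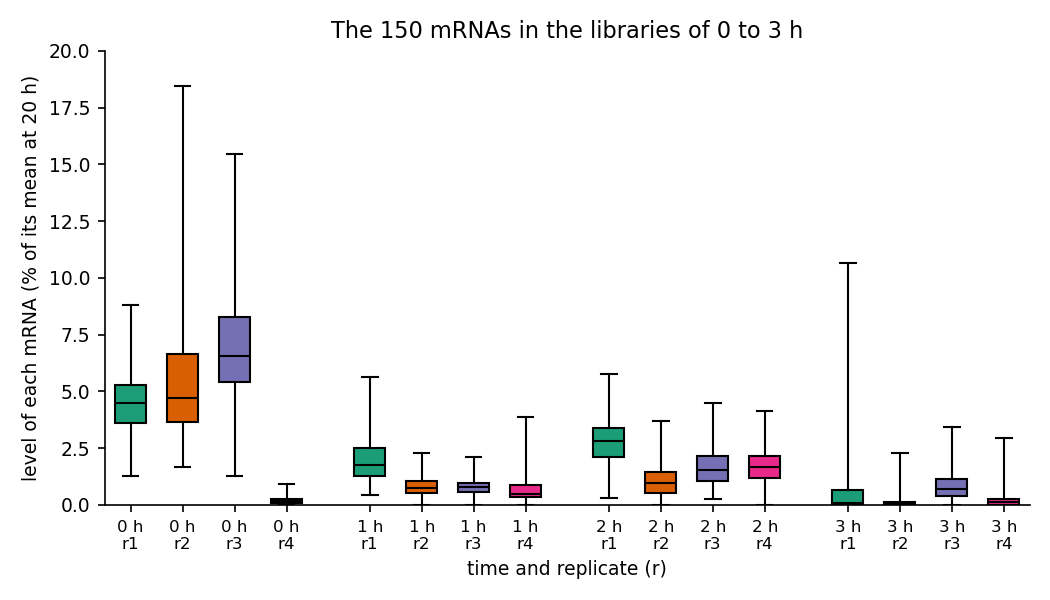
Level of each of the 150 mRNAs as a percent of its mean at 20 h, in the libraries of 0, 1, 2 and 3 h (boxes, quartiles with the median; whiskers, lowest and highest mRNA). The medians are 4.50%, 4.71% and 6.56% in 0 h replicates 1 to 3 and 0.176% in 0 h replicate 4.

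At 1 h the summed level was 539.5, 274.7, 271.7 and 185.6 CPM in replicates 1 to 4, below 0 h replicates 1 to 3 and above 0 h replicate 4. The fitted levels of all 150 mRNAs at 1 h were below those at 0 h, with log2 fold changes of -1.13 or less and a median of -1.97. In edgeR 10 of the 150 were called lower and 0 higher, beside 12.1% and 0.136% of all genes. At an unadjusted p under 0.05, 84 of the 150 were lower and 0 higher, beside 24.9% and 8.54% of all genes, and all 150 were at least 2-fold lower, beside 27.4%. The 1 h level was part of the rule, so the fold changes are a description. The number of genes called lower over all genes turned on single libraries, between 460 without 0 h replicate 3 and 2008 without 0 h replicate 4.

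The comparison of 18 h with 0 h used neither side of the ratio, and it asks whether these mRNAs had risen by 18 h above the level of the 0 h libraries. It is still not independent of the choice. The rule favoured low levels at 14 and 16 h, and 18 h replicates 1 and 3 were closest to 14 h libraries. The rule also favoured high levels at 20 h, which the levels in 0 h replicates 1 to 3 followed across the 150. The counts below can therefore follow in part from the choice, and are given as a description. With edgeR's quasi-likelihood test, 6 of the 150 were called higher at 18 h and 0 lower, beside 39.5% and 25.6% of the 11065 genes tested. At an unadjusted p under 0.05 in the same test, 8 were higher and 0 lower, beside 45.95% and 38.33% of all genes. The median log2 fold change of the 150 was 0.10, against 0.30 over all genes, with 81 positive and 69 negative, and the range was -2.15 (CG14095) to 2.82 (TwdlE). For 1 of the 150, all 4 libraries of 18 h lay above all 4 of 0 h, and for 0 the reverse held. The share over all genes is not given for this count, so nothing is read from it. The libraries of both times were widely spread, with summed levels of 429.1 to 3491 CPM at 18 h, against 68.91 to 2259 CPM at 0 h.

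The 6 mRNAs were TwdlE, CG4998, TwdlX, snu, CG34305 and drd. TwdlE had 9.95, 15.56, 24.87 and 65.04 CPM at 18 h, against 6.31, 3.23, 6.30 and 0.501 CPM at 0 h, a log2 fold change of 2.82 (SE 0.73, edgeR adjusted p = 0.000485). Its groups did not overlap. CG4998 had 3.68, 15.56, 16.90 and 60.62 CPM at 18 h, against 6.14, 4.35, 5.85 and 0.501 CPM at 0 h, a log2 fold change of 2.52 (SE 0.89, edgeR adjusted p = 0.00895). TwdlX had 3.49, 21.29, 16.56 and 56.33 CPM at 18 h, against 10.06, 6.06, 8.53 and 0.278 CPM at 0 h (log2 fold change 1.97, edgeR adjusted p = 0.0223). The groups of both CG4998 and TwdlX overlapped through 18 h replicate 1. The barrier transporter gene snu had a log2 fold change of 1.71 (edgeR adjusted p = 0.0298), CG34305 one of 1.73 (0.0407) and drd (drop dead), named for the early death of mutant adults, one of 1.56 (0.043). For TwdlF the log2 fold change was 1.87 with an edgeR adjusted p of 0.0506, and for Muc91C 1.67 with 0.0693. At the other end CG14095 had 0.129, 1.54, 1.23 and 0.390 CPM at 18 h, against 3.86, 5.00, 6.19 and 0.111 CPM at 0 h, a log2 fold change of -2.15 with an edgeR adjusted p of 0.0629.

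The count of 6 depended on single libraries. It was 16 without 0 h replicate 1, 18 without 0 h replicate 3, 11 without 18 h replicate 1 and 1 without 18 h replicate 4, which was TwdlE (log2 fold change 1.85). Without 0 h replicate 4, 4 were higher and 2 lower. Scaling with DESeq2's size factors in place of TMM moved the median of all genes to 0.61 and that of the 150 to 0.45, with 19 called higher, so the 150 were below the median of all genes under both scalings. They were above it without 0 h replicate 3 (0.67 for the 150, against 0.48 for all genes), without 18 h replicate 1 (0.16 against -0.04) and when the samples of 18 and 0 h were fitted alone (0.15 against 0.05), so the side on which they lay was not settled.

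The wider lists show what surrounded these mRNAs at 20 h. Of 84 cuticle protein genes tested, 49 were among the 150, and their calls follow from the rule. Among the 35 others, edgeR called 24 higher at 20 h than at 18 h and 0 lower, beside 17.2% and 6.05% of all genes, with a median log2 fold change of 2.76 against -0.06 over all genes. TwdlT, one of them, had 176.2, 50.50, 247.1 and 235.0 CPM in 20 h replicates 1 to 4. Without 20 h replicates 3 and 4, 1 of the 35 was called higher, beside 1.08% of all genes. The 35 included 4 Tweedle genes, all called higher, and 22 genes named Cpr, of which 12 were called higher.

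Related lists of chitin biology had few or no members among the 150. Of 21 peritrophin, mucin and obstructor genes tested, 2 were among the 150. Of the 19 others, 13 were called higher and 1 lower, beside the same 17.2% and 6.05%. Gasp, a chitin-binding protein of the tracheal and epidermal matrix, had 753.8, 688.5, 2768 and 2771 CPM at 20 h. Of 19 chitinase and chitin deacetylase genes, none of them among the 150, 10 were called higher and 0 lower. The deacetylase genes verm and serp were the most abundant of these and were not called (log2 fold changes 1.04 and 0.92, edgeR adjusted p = 0.0941 and 0.180). In 20 h replicates 1 to 4, verm had 1479, 1213, 1856 and 1709 CPM, against 706.9, 549.5, 668.8 and 1347 CPM at 18 h. For serp the levels were 705.6, 684.7, 946.2 and 826.5 CPM at 20 h, against 376.4, 286.9, 348.8 and 786.8 CPM at 18 h. In both genes replicate 2 was the lowest of the 20 h libraries, at a level nearer to replicates 3 and 4 than in any of the 150. Of 21 digestive protease genes outside the 150, 9 were called higher and 0 lower. Without 20 h replicates 3 and 4 the counts of higher calls in these 3 lists were 1, 1 and 0 (edgeR), beside 1.08% of all genes. At an unadjusted p under 0.05, 5, 6 and 2 genes of the lists were higher. Over all 11242 genes of that fit, 3057 passed the same threshold in either direction. Egg shell and yolk genes summed to 2.45, 25.47, 3.22 and 1.74 CPM in 20 h replicates 1 to 4, and to 3.234 CPM or less in the libraries of 0 and 18 h. Of the 4 tested, 1 was called higher at 20 h, Yp1, with 0, 3.11, 0.264 and 0.139 CPM in 20 h replicates 1 to 4. Adult male genes summed to 0.954 CPM or less in the libraries of 0, 18 and 20 h.

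The 150 genes lay close to each other in the genome more often than other genes did, a property the rule did not use. In the BDGP6 annotation, 73 of the 150 (48.7%) had another of the 150 within 20 kb, and 982 of 17102 other annotated genes (5.74%) had one of the 150 within that distance. Chromosome arm 3L held 64 of them, 42.7% beside 19.7% of all protein-coding genes. Many families of near copies lie in tandem, so the members of a group are not independent of each other. The genes were short, with a median exon length of 996.5 bases against 2045 bases for the protein-coding genes tested, and 75 of them had under 1 kb of exon. The bodies of 41 overlapped another gene, 5 on the same strand, and the setting for strand in the counting is not given in the sources used here.

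The largest group had 13 of the 150 among 42 genes on 3L:16264713-16345241. It ran CG13051, CG13069, CG13067, CG13066, CG13049, CG13048, CG13047, CG13046, CG13063, CG13041, CG13060, CG13059 and CG4998, most of them without a known function. The sum of the 13 was 332.1, 63.72, 2547 and 2314 CPM at 20 h, against 17.76, 67.49, 63.23 and 111.5 CPM at 18 h. CG13059 had the highest mean at 20 h of the 13, 227.5 CPM. At 18 h, 12 members of the group stood at 2.16% (CG13051) to 4.81% (CG13049) of their 20 h level, and CG4998 stood apart at 15.3%. Of the 29 other genes in the span, 8 were tested, of which 7 were called higher at 20 h and 1 lower. Nplp3 and CG13039, in the same span, had 0 counts in the 20 h libraries, which allows up to 3 counts in each.

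The Tweedle genes fell into separate places. On 3R:26619118-26657531, TwdlM, TwdlP, TwdlB, TwdlL, TwdlN, TwdlD and Tb lay among 14 genes. Their 18 h levels were 2.63% to 4.47% of the 20 h level, and the median share in 20 h replicate 1 was 7.38%. Between them lay TwdlO, TwdlK, TwdlR and TwdlS, with means of 0.112, 1.31, 2.39 and 1.30 CPM at 20 h, below the minimum of 10 CPM. TwdlJ and TwdlH, at 14.23 and 10.26 CPM, passed that minimum but not the ratio. On the same arm at 4242785 to 4255833, CG34305, TwdlF, TwdlG and TwdlV lay together, with a median 18 h level of 8.11% and a median share in 20 h replicate 1 of 27.3%. TwdlE lay on 2L and TwdlX on X. The difference between these Tweedle groups is a description of 7 and 4 genes.

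The Lcp65A group on 3L:6130386-6145393 held Lcp65Ag3, Lcp65Ag2, Lcp65Ag1, Lcp65Af, Lcp65Ae, Cpr65Av and Lcp65Ac. Its sum was 183.0, 25.56, 2885 and 2718 CPM at 20 h, against 15.76, 85.17, 72.70 and 41.97 CPM at 18 h. Here 18 h replicate 4 was below 18 h replicates 2 and 3, the reverse of the TwdlF group, where the 18 h sums were 57.74, 205.1, 246.8 and 728.2 CPM. Inside the span Lcp65Ad and Cpr65Au stood at 3.14 and 1.08 CPM at 20 h, and Cpr65Aw had 0 counts. In all, 9 groups of at least 3 held 47 of the 150, including the genes Vajk1, Vajk2 and Vajk3 on 2L and Ccp84Ag, Ccp84Ae and Ccp84Ad on 3R.

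**Figure D5:**
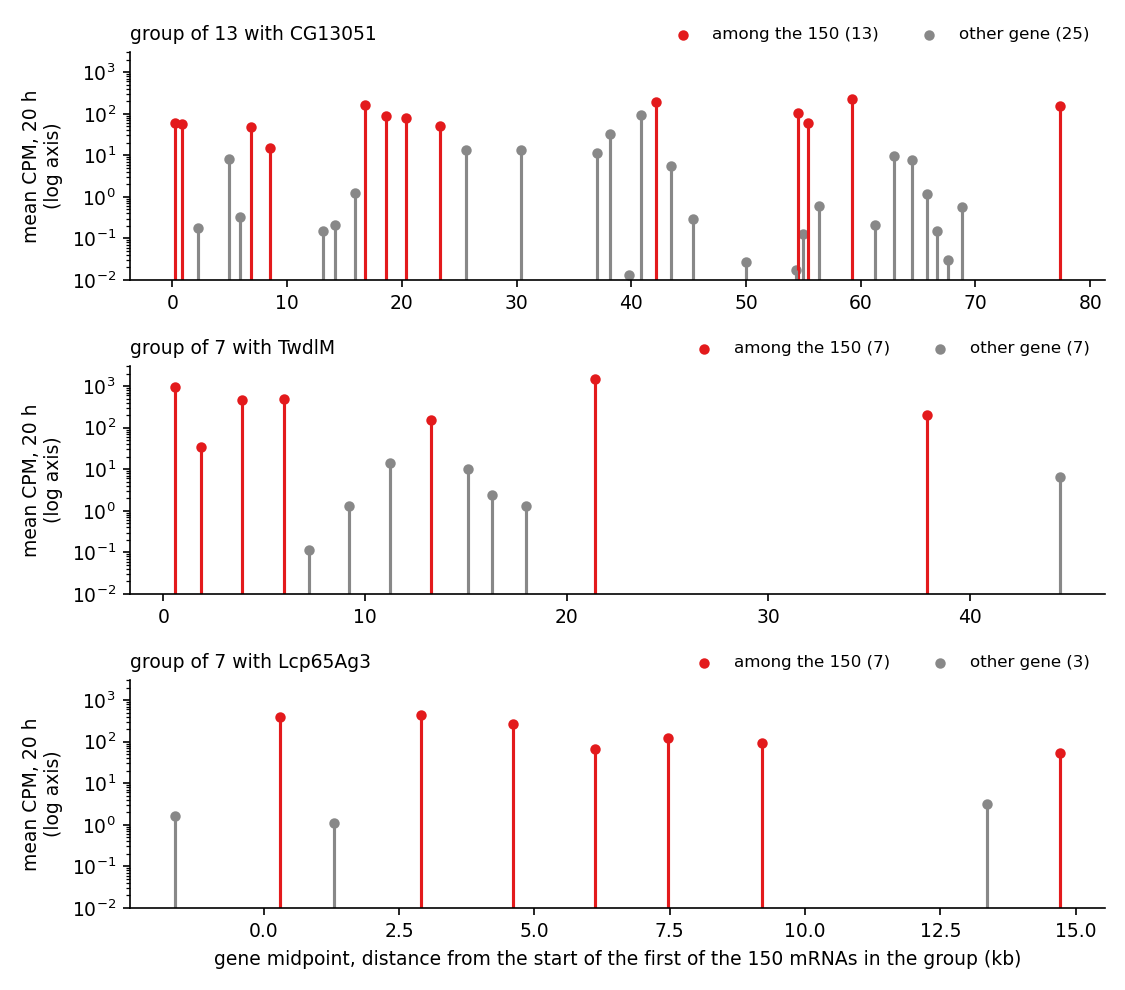
Mean level at 20 h (CPM, log axis) of the genes in 3 genomic groups, against the distance of each gene's midpoint in kb from the start of the first of the 150 mRNAs in the group, with the 150 in red and other genes in grey. In the Tweedle group TwdlM and TwdlD stand at 964.6 and 1501 CPM, with genes at 0.112 to 14.23 CPM between them. Genes at 0 CPM are left out.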

How the data were processed

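Polyadenylated RNA of whole embryos was sequenced in 56 samples, 4 replicates at each of 14 time points, as single reads of 51 bases from stranded libraries. The deposited tables hold read counts per gene, not normalized, which the authors made with htseq-count (HTSeq 0.6.1p1, union setting) on the Ensembl release 79 annotation. Each read entered once at most, by its primary alignment to BDGP6 from STAR 2.4.0h. Reads that matched over 10 places, or differed from the genome at over 2 bases, did not enter. The strand setting is not given in the sources used here. Rows that name no gene were left out of library sizes: reads with no feature were 0.436 to 1.95% and ambiguous reads 1.35 to 1.87%.

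CPM used the sum over gene rows, and RPKM divided by the exon length in Ensembl release 115, which also gave symbols and positions (17252 of 17558 gene IDs matched). The members and the gene lists were chosen with earlier results of these data known. Contrasts between times were fitted to the deposited counts of all 56 samples with edgeR 4.0.16 (R 4.3.3): TMM scaling, filterByExpr by time point, quasi-likelihood F test, Benjamini-Hochberg adjustment over the 11065 genes tested, with a gene called where its adjusted p was under 0.05 and its log2 fold change was 1 or more in size. All 150 members passed the filter. On simulated counts with 200 genes changed 4-fold, 95% were found for 18 h against 0 h, with 3 others called of 10677 genes in the step. The simulated replicates of a time shared the same mean and had the spread typical of genes at that level. They lacked the division among the real 0 and 18 h libraries, so the 95% does not carry over to the 150 mRNAs. Alternatives were DESeq2 1.42.0, edgeR with DESeq2's size factors, all genes kept whatever their counts, a replicate block, the samples of the compared times alone, each replicate left out, and other settings of the rule. Leaving out 20 h replicates 3 and 4, or 1 and 2, was added after the libraries were seen to divide.

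Genes named were the 12 with the largest ratios, the 3 most abundant members of each list, the 4 highest and 4 lowest in the 18 h share, the 4 highest in the 0 h share, those at the threshold, and the largest genomic group. The 2 most abundant non-members of each list were looked at, and of these the text gives TwdlT, Gasp, verm and serp. Those not printed include genes called higher at 20 h than at 18 h, such as Mal-A3, and genes called lower, Obp99a and Drsl5. TwdlG, TwdlX, Tb, Vajk4, snu, snsl, drd, Ddc, Ccp84Ae and CG34305, and the other members of the Tweedle, Lcp65A, Vajk and Ccp84A gene groups, were named after their values were seen. Intervals at 3 counts cover counting error. Sequence features were not analysed here. P-values of the main fit rest on a spread between replicates estimated for each gene over all 56 samples. They do not measure the spread of the compared libraries alone, which was not the same at all times.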

Additional observations from a re-analysis of the deposited data

Results flagged for a closer look

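In 5 groups of 4 replicates, 1 library stood apart from the others by more than Dixon's criterion allows. Such a gap is met by chance in about 1 group in 20, and 138 groups of 46 named mRNAs (at 0, 18 and 20 h) and 14 summed levels were examined. At 8 h the summed level of the 150 mRNAs was 556.9 CPM in replicate 2, against 51.0, 35.72 and 65.76 CPM in the other replicates. CG13731 had 1.938 CPM in 18 h replicate 1, below 9.06 to 10.07 CPM in the other replicates, and CG30458 had 0.1938 CPM in the same library, below 2.04 to 2.42 CPM. CG14453 had 4.565 CPM in 18 h replicate 3, above 1.24 to 1.66 CPM in the others. CG13046 had 0 CPM in 0 h replicate 4, which allows up to 3 counts.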

How the results depend on the processing

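The number of genes changed between 20 and 18 h was 2569, and it became 0 with the samples of those times alone (4745 had an unadjusted p under 0.05), 380 without 20 h replicates 3 and 4, 4137 without 20 h replicates 1 and 2, and 5318 with no minimum fold change. Between 1 and 0 h it was 1352, with 94 from the samples of those times alone, 2142 with no minimum fold change, and 492 (without 0 h replicate 3) to 2043 (without 0 h replicate 4) on leaving out a library. Between 18 and 0 h it was 7209, and 6968 to 7831 on leaving out a library. The count of the 150 mRNAs called higher at 18 h than at 0 h was 6, with 19 under DESeq2 size factors, 18 in DESeq2, 13 with no filter on low counts, 2 with the samples of those times alone, and 1 to 18 on leaving out a library. The rule kept 51 of the 150 without 20 h replicates 3 and 4, and 113 to 150 under its other settings. The median 18 h share was 4.45%, and 3.36% to 6.62% on leaving out a library. The cause of these shifts was not tested.

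Of 42 mRNAs named by rule, 17 changed the sign of their 18 h against 0 h fold change under some setting, 10 of them with all libraries kept, and 0 of the changes of sign involved a call on either side. The replicate numbers did not pair the samples: same-numbered deviations correlated at 0.143 on average at 20 and 18 h (0.055 to 0.245), -0.12 at 18 and 0 h (-0.48 to 0.31) and 0.0039 at 1 and 0 h (-0.56 to 0.47). With the number as a replicate block, 7 of the 150 were called higher at 18 h than at 0 h, TwdlF among them (log2 fold change 2.17, edgeR adjusted p = 0.0348), and 8 were called lower at 1 h than at 0 h. The block moved neither these counts, nor those over all genes, nor those of the named lists at 20 h against 18 h by over 1.5 times. Depth limits the lowest values, since 3 counts are 0.133 to 0.224 CPM, near the 18 h levels of CG14095, Cpr92F and Cpr100A in replicate 1.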
